A study of Mus musculus with 8 samples.

Results

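Bulge stem cell markers are described here as a set of 9 genes (Krt15, Cd34, Lgr5, Lgr6, Sox9, Lhx2, Nfatc1, Tcf7l1 and Postn) known from the stem cell compartments of the hair follicle. They were found on the arrays through the RefSeq accession that the files give for each probe, and all 9 had a probe, among 20128 genes with a symbol. The 9 genes had 11 probes, of which 11 were bright enough to be tested. For Cd34 and Nfatc1, which had 2 probes each, levels are those of the brighter probe unless stated.

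The bulge is the lower end of the permanent part of the follicle, where slowly dividing stem cells are kept, and the secondary hair germ below it holds cells that divide first when a new hair begins to grow. Follicles cycle between growth (anagen), regression (catagen) and rest (telogen). In a piece of whole skin the transcripts of these cells are mixed with those of the hair matrix, epidermis, dermis, fat and muscle, and how much a marker contributes depends on all of them. In such bulk RNA, fewer cells of a type and less RNA per cell cannot be told apart.

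RNA came from skin of C57BL/6N mice and was labelled with Cy3 and hybridised to Agilent single-colour mouse arrays, 1 array per sample. The 3 groups were hair loss skin of Cchcr1 mutants (2 arrays), normal skin of Cchcr1 mutants (4 arrays) and normal skin of wild type mice (2 arrays). The mutants had been made by allele-specific CRISPR/Cas9 editing of Cchcr1, a gene for a coiled-coil protein, in a study of patchy hair loss of the alopecia areata kind. Age, sex and hair cycle stage are not given in the sources used here. Titles carry a number that the labels do not explain: Mutant097 and Mutant113 each have 1 hair loss and 2 normal skin arrays, and both wild type arrays are Wild001, so genotype cannot be told apart from title number. If a number marks an animal, arrays with the same number share it, while the p-values below treat arrays as separate. Those of the comparisons with wild type are then too small. Those for hair loss against normal skin, both present in each mutant number, could then be too small or too large.

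Levels are log2 intensities minus the 75th percentile of the array, so 0 is the 75th percentile and a difference of 1 is a doubling. That percentile ran from 83.1 to 211 intensity units, and 25424 to 30205 probes per array were well above background by the mark of the scanner software. Cchcr1 itself lay between -0.07 and 0.49 on the 8 arrays, with a difference of 0.17 between normal skin of mutants and of wild type (limma adjusted p 0.688). The Y-linked gene Ddx3y was above background on the arrays of Mutant097 and Wild001 and Xist on those of Mutant113, so any contrast of Mutant113 with the others also sets apart sex-linked expression. All arrays were on 1 slide. Its row 1 held both hair loss arrays and the normal skin of Mutant097, and its row 2 held wild type and the normal skin of Mutant113. Where the row is given as a block, hair loss is therefore set against normal skin of Mutant097, and wild type against that of Mutant113.

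Upstream sequences were read for members whose start site was in the RefSeq promoter table (build GRCm38.p6), which were 5 of the 9 genes (Cd34, Lgr6, Lhx2, Postn and Tcf7l1), with 7 start sites. The 250 bases before each start were searched on both strands for short core motifs of the factor families to which several members belong. These were GGAAAA for NFAT factors, CTTTGA for TCF and LEF factors, ACAAT for SOX factors and TAATTA for LIM homeodomain factors. Cd34 and Postn are shown because their arrays ordered the groups in opposite directions, and 1 upstream stretch of each held the same core. The other listed stretch of Postn held none of the cores. Capitals mark the ACAAT core or its complement on the other strand, in sequences written 5′ to 3′ on the strand of the gene.
Cd34 (chr1:194938571-194938820, plus strand): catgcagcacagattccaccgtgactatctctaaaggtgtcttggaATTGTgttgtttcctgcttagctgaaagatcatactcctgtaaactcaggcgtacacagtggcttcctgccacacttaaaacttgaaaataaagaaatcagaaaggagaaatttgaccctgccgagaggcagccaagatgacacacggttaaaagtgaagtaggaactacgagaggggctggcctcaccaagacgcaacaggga
Postn (chr3:54359017-54359266, plus strand): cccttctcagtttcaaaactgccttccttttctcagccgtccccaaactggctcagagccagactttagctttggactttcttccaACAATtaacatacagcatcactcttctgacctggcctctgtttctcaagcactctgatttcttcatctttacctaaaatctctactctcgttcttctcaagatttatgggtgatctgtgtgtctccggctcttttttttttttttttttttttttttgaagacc
The ACAAT core lay 200 to 204 bases before the start of Cd34, on the minus strand, and 160 to 164 bases before this start of Postn. It was also 58 to 62 bases before the start of Lgr6, and it is common, since 27.7% of 32851 upstream stretches of the same length held it. The remaining match among the 7 stretches was a GGAAAA core, 134 to 139 bases before the second listed start of Lhx2, on the minus strand; 20.4% of all stretches held that core. The CTTTGA and TAATTA cores, which 13.8% and 4.84% of all stretches held, were in none of the 7. These matches describe the letters only.

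How the stem cell markers stood in the lesion was read from hair loss against normal skin within the mutants. None of the 9 members passed the threshold, an adjusted p under 0.05 in limma over 30417 probes, and none of the 30417 probes did either (0%). In simulated data, 0% of 200 probes with a log2 shift of 1 were recovered here, so missing calls do not show equal levels. At an unadjusted p under 0.05 there were 3 of 9 members, against 5.20% of all probes. All 3 (Krt15, Cd34 and Lhx2) were lower, against 3.41% of all probes, and 0 were higher, against 1.79%. The same 3 members were lower with no overlap between the groups, against 6.68% of all probes, and 0 were higher without overlap, against 5.73%. In all, 7 of 9 members were lower on average and 2 higher, where 49.1% of all probes were higher. The 7 include Lgr6, whose signal was near background. The median difference of the 9 was -0.34, beside a median of -0.01 over all probes.

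Krt15 is a keratin of the basal layer that is enriched in bulge cells. Its level was 6.62 in hair loss of Mutant097 and 7.14 in that of Mutant113, and 7.57, 7.91, 7.24 and 7.66 on the 4 mutant normal skin arrays (replicates 1 and 2 from Mutant097, 3 and 4 from Mutant113). Both hair loss arrays lay below all 4 normal skin arrays, by a narrow margin in Mutant113. The difference was -0.71 (SE 0.24, 95% interval -1.26 to -0.16, limma adjusted p 0.871), or 1.64-fold.

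Cd34 encodes a surface sialomucin that marks bulge cells in mouse skin and is also made by endothelial cells, mast cells and dermal fibroblasts. Its level was 5.65 and 5.58 in hair loss, and 6.33, 6.61, 5.70 and 6.32 in mutant normal skin. The hair loss arrays were the lowest, with replicate 3 of normal skin, from Mutant113, close above them. The difference was -0.63 (SE 0.25, 95% interval -1.21 to -0.04, limma adjusted p 0.938). Its dimmer probe gave -0.55 (adjusted p 0.988), with overlap between the groups.

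Lhx2, a LIM homeodomain factor of the bulge and hair germ, gave the largest difference of the 9. Its level was 3.10 and 2.66 in hair loss, and 3.96, 3.74, 3.61 and 3.39 in mutant normal skin. The groups did not overlap, and within each title number hair loss was lower by a similar amount. The difference was -0.80 (SE 0.23, 95% interval -1.33 to -0.26, limma adjusted p 0.765), which only 3.69% of all probes lay below.

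**Figure D1:**
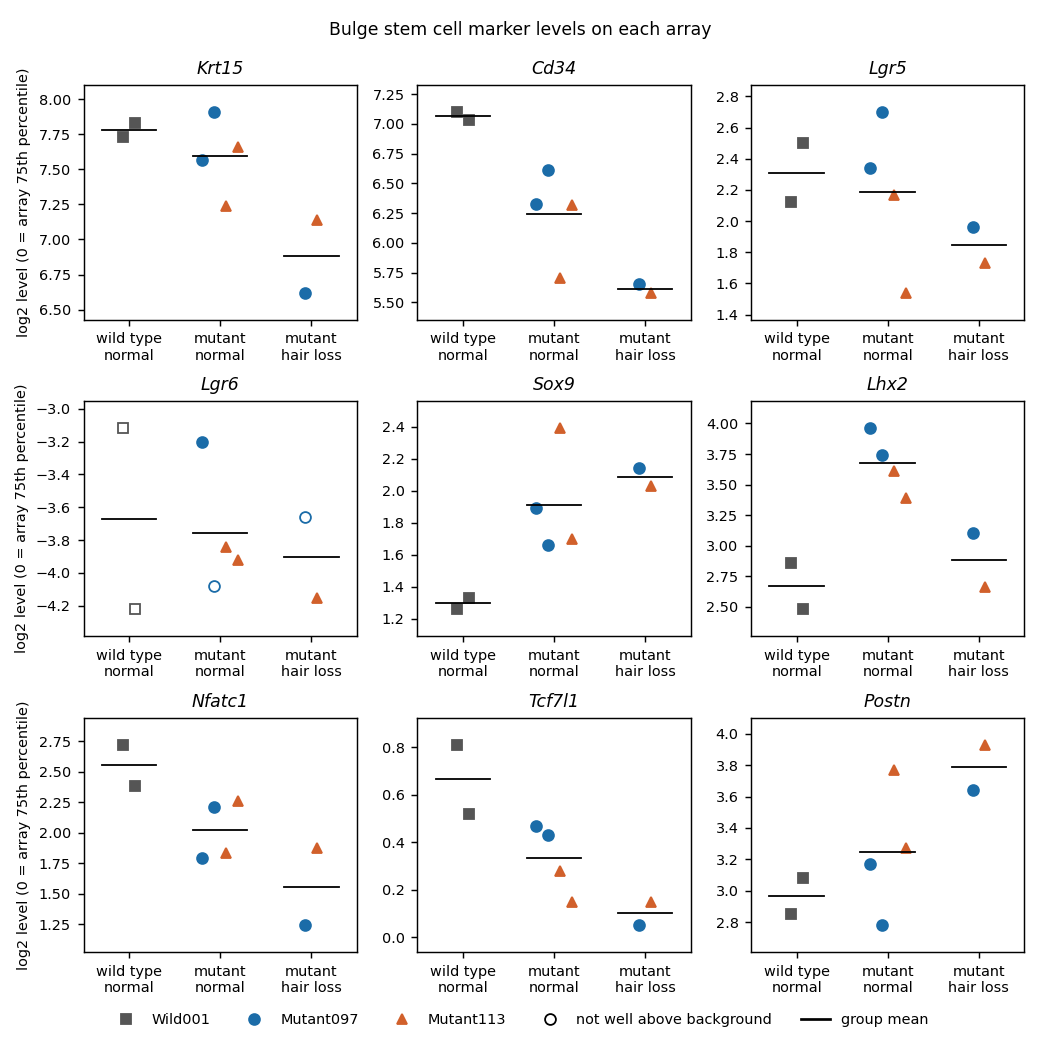
Log2 level of each of the 9 markers on every array, relative to the 75th percentile of the array, by group; colours and shapes give the title number, open symbols arrays where the probe was not well above background, and lines the group means. Krt15, Cd34 and Lhx2 lie lower on both hair loss arrays than on all 4 mutant normal skin arrays, while Lhx2 is as low in wild type, and Sox9 is lowest on both wild type arrays.

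Of the receptors, Lgr5 and Lgr6 bind R-spondins and strengthen Wnt signalling, Lgr5 in the lower bulge and germ and Lgr6 above the bulge. Lgr5 stood at 1.96 and 1.73 in hair loss and at 2.34, 2.70, 2.17 and 1.54 in mutant normal skin. Replicate 4 of normal skin was the lowest of these arrays, so the groups overlapped (difference -0.34, SE 0.32, 95% interval -1.07 to 0.39, limma adjusted p 0.999). Lgr6 was well above background on 4 of 8 arrays, 3 of mutant normal skin and 1 of hair loss, with processed intensities of 6.78 to 17.5 over all 8. Its difference of -0.14 (95% interval -0.99 to 0.71) therefore rests on signal near background.

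Among the other transcription factors, Nfatc1 holds bulge cells in quiescence, Tcf7l1 represses Wnt targets in the resting bulge, and Sox9 maintains bulge and outer root sheath cells. The brighter probe of Nfatc1 read 1.24 and 1.87 in hair loss and 1.79, 2.21, 1.83 and 2.26 in mutant normal skin. Hair loss of Mutant097 was the lowest of these and that of Mutant113 lay among normal skin (difference -0.47, SE 0.25, limma adjusted p 0.991). The dimmer probe of Nfatc1, designed to another transcript accession, differed by -0.06 (limma adjusted p 0.999). Tcf7l1 read 0.05 and 0.15 in hair loss and 0.47, 0.43, 0.28 and 0.15 in mutant normal skin, a difference of -0.23 (SE 0.18, limma adjusted p 0.999). The 2 arrays of Mutant113 that both read 0.15 show that its groups met.

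Sox9 and Postn were the 2 members that were higher in hair loss on average. Sox9 read 2.14 and 2.03 in hair loss and 1.89, 1.66, 2.39 and 1.70 in mutant normal skin, so 1 normal skin array of Mutant113 exceeded both (difference 0.18, SE 0.23, 95% interval -0.36 to 0.72, limma adjusted p 0.999). Postn, which encodes the matrix protein periostin, known in dermal fibroblasts as well as in the hair germ, read 3.64 and 3.93 in hair loss. In mutant normal skin it read 3.17, 2.78, 3.77 and 3.27. Replicate 3 of normal skin lay between the hair loss arrays (difference 0.54, SE 0.28, 95% interval -0.10 to 1.18, limma adjusted p 0.988).

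The probe of Sox9 was printed on 10 spots, which repeat the measurement of a single sample. The SD over the spots of an array was 0.056 to 0.083. The SD between the 4 mutant normal skin arrays was 0.34.

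**Figure D2:**
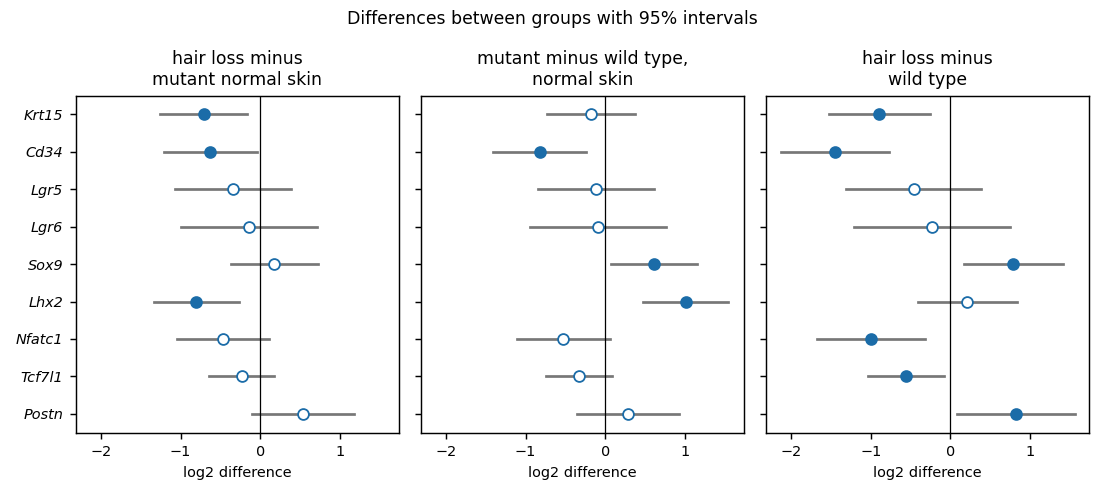
Log2 difference of each marker in the 3 comparisons, with 95% intervals of the limma model; filled points have an unadjusted p under 0.05. None of the 27 differences passed an adjusted p of 0.05, and Lhx2 is lower in hair loss than in mutant normal skin but higher in mutant normal skin than in wild type.

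Pairing by title number set each hair loss array against the 2 normal skin arrays of its own number. Krt15 differed by -1.12 in Mutant097 and -0.31 in Mutant113, Cd34 by -0.82 and -0.43, and Lhx2 by -0.75 and -0.85. Nfatc1 differed by -0.76 and -0.18, Lgr5 by -0.56 and -0.12, and Tcf7l1 by -0.40 and -0.06. Postn differed by 0.67 and 0.41, Sox9 by 0.37 and -0.01, and Lgr6 by -0.02 and -0.27. Krt15, Cd34, Nfatc1, Lgr5, Tcf7l1 and Postn thus had the smaller difference in Mutant113, in the same direction, while Lhx2 had the larger one there. For Nfatc1 the same direction held for the brighter probe only, since its dimmer probe differed by -0.32 in Mutant097 and 0.20 in Mutant113. The values of Lgr6 include arrays where it was not well above background and are not ranked.

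In both numbers, 3 of 9 members (Krt15, Cd34 and Lhx2) had hair loss below both of their own normal skin arrays, against 12.0% of all probes, and 1 (Postn) had it above both, against 11.9%. For Cd34 this held for the brighter probe only. Its dimmer probe read -0.46 in hair loss of Mutant113, above the -0.62 of normal skin replicate 3 from that number. The difference between the lesion effects of Mutant113 and Mutant097 was tested in a model of group and number, with 1 hair loss array for each number. The spread in that model came only from the 2 normal skin arrays of each number, wild type included. Their titles carry different letters, A and B, which the labels do not explain, so any difference tied to the letter counts as spread. Each hair loss array was assumed to vary like these arrays. It was largest for Krt15, at 0.81 (SE 0.39, 95% interval -0.17 to 1.79, limma adjusted p 0.602), and none of the 9 members passed the threshold, nor did any of the 30417 probes (0%). At an unadjusted p under 0.05 there were 0 members and 9.50% of all probes.

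**Figure D3:**
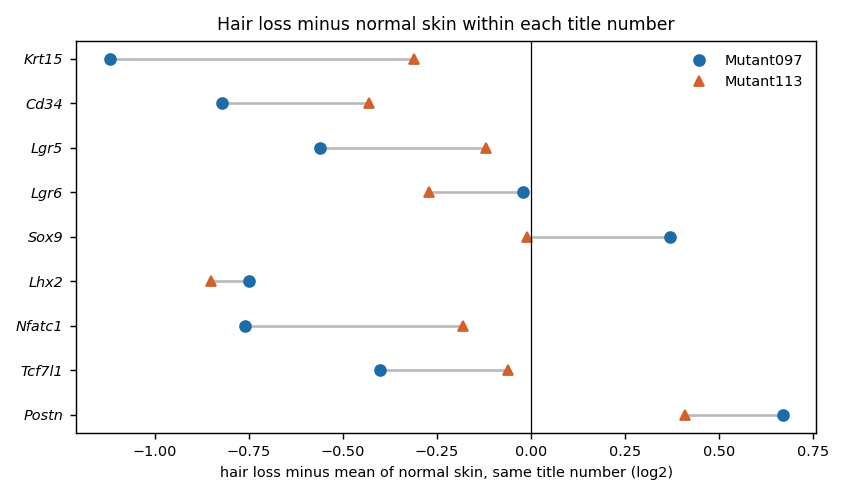
Hair loss minus the mean of the 2 normal skin arrays of the same title number, on the log2 scale, for each marker, with circles for Mutant097 and triangles for Mutant113. Krt15 runs from -1.12 to -0.31 between the numbers, Lhx2 lies at -0.75 and -0.85, and Postn is the only marker above 0 in both.

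With the slide row as a block, which sets both hair loss arrays against normal skin of Mutant097 in the same row, the differences were -0.86 for Krt15, -0.86 for Cd34, -0.97 for Lhx2 and 0.82 for Postn. Their adjusted p-values in limma were 0.318, 0.298, 0.258 and 0.328. Lgr5 then differed by -0.68 (adjusted p 0.443 in limma), beside -0.34 without the block. No member was called in this comparison with that block.

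How the markers stood away from the lesion was read from normal skin of mutants against that of wild type. None of the 9 members passed the threshold, while limma called 211 of 30417 probes (0.694%), 0.575% higher and 0.118% lower. At an unadjusted p under 0.05 there were 3 members, against 17.2% of all probes. Cd34 was lower, against 9.10%, and Sox9 and Lhx2 were higher, against 8.14%. Without overlap between groups, 3 members were lower (Cd34, Nfatc1 and Tcf7l1) and 2 higher (Sox9 and Lhx2), beside 14.8% and 13.6% of all probes. The median over the 9 members was -0.12, and over all probes -0.04.

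Lhx2 read 2.86 and 2.48 in wild type, below all 4 mutant normal skin arrays (3.39 to 3.96). The difference was 1.01 (SE 0.23, 95% interval 0.47 to 1.54, limma adjusted p 0.116), or 2.01-fold. Sox9 read 1.26 and 1.33 in wild type and at least 1.66 in mutant normal skin, a difference of 0.61 (SE 0.23, limma adjusted p 0.246).

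Cd34 read 7.10 and 7.03 in wild type, above every mutant array. Mutant normal skin was lower by a difference of -0.82 (SE 0.25, 95% interval -1.41 to -0.24, limma adjusted p 0.181). Its dimmer probe gave -1.36 (SE 0.28, limma adjusted p 0.0933), from 1.49 and 1.07 in wild type against -0.62 to 0.27. Nfatc1 read 2.72 and 2.38 in wild type (difference -0.53, limma adjusted p 0.33), and Tcf7l1 0.81 and 0.52 (difference -0.33, limma adjusted p 0.386). By these probes both were higher on each wild type array than on any mutant array, without passing the test. The dimmer probe of Nfatc1 differed by -0.24 (limma adjusted p 0.572). It read 0.81 and 0.84 in wild type and 0.83 in hair loss of Mutant113, so wild type did not lie above every mutant array.

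Krt15 read 7.73 and 7.83 in wild type, within the range of mutant normal skin (difference -0.18, 95% interval -0.73 to 0.37, limma adjusted p 0.725). Lgr5 read 2.12 and 2.5, also within that range (difference -0.12, 95% interval -0.85 to 0.61), and Postn 2.85 and 3.08 (difference 0.28, 95% interval -0.36 to 0.92). Lgr6 was not well above background on either wild type array. Within row 2 of the slide, where normal skin of Mutant113 is set against wild type, Cd34 differed by -1.06 (limma adjusted p 0.0894), Lhx2 by 0.83 and Sox9 by 0.75.

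Hair loss skin was also set against wild type skin, a comparison that shares its arrays with both of the others. The brighter probe of each of the 9 members missed the threshold, while limma called 432 of 30417 probes (1.42%), 0.993% higher and 0.427% lower. Of those called 69.9% were higher, and 84.2% when arrays were centred on their median instead. At an unadjusted p under 0.05 there were 6 members, against 24.8% of all probes. Of these, 4 were lower (Krt15, Cd34, Nfatc1 and Tcf7l1), against 13.6% of all probes, and 2 were higher (Sox9 and Postn), against 11.2%. Groups of 2 against 2 often do not overlap, and 5 members lower and 2 higher without overlap stand beside 28.5% and 24.8% of all probes.

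Cd34 was lower in hair loss by the largest amount of the 9, with a difference of -1.45 (SE 0.29, 95% interval -2.13 to -0.77, limma adjusted p 0.0593), or 2.73-fold. Its dimmer probe fell by 1.91 on the log2 scale (SE 0.33, limma adjusted p 0.0409), from 1.49 and 1.07 in wild type to -0.79 and -0.46. That call was lost in 8 of 17 alternatives, among them the omission of either wild type array or either hair loss array. It was also lost with 1 mean per group and title number, which leaves 1 wild type value. With 1 array omitted, the difference of this probe ran from -2.12 to -1.70. The brighter probe passed in 7 of 18 alternatives, with adjusted p-values from 0.0251 to 0.25.

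For the other members, Nfatc1 differed by -1 (SE 0.29, limma adjusted p 0.102), Krt15 by -0.90 (SE 0.27, adjusted p 0.112 in limma) and Tcf7l1 by -0.56 (SE 0.20, adjusted p 0.15 in limma). The dimmer probe of Nfatc1 differed by -0.30 (SE 0.23, limma adjusted p 0.447), with overlap between the groups. The higher members were Postn, by 0.82 (SE 0.32, adjusted p 0.166 in limma), and Sox9, by 0.79 (SE 0.27, adjusted p 0.133 in limma). Lhx2 differed by 0.21 with a 95% interval of -0.41 to 0.83, and its hair loss arrays (3.10 and 2.66) overlapped wild type (2.86 and 2.48). Across the 3 groups, Krt15, Cd34, Lgr5, Nfatc1 and Tcf7l1 had their highest mean in wild type and their lowest in hair loss, Sox9 and Postn the reverse order, and Lhx2 its highest mean in mutant normal skin. Lgr6 was too near background to be placed.

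Genes of the surrounding follicle were counted in the same fits. Of 18 genes of bulge quiescence and niche, 0 were called in hair loss against mutant normal skin, where the median difference was -0.01 (-0.08 to 0.04 with 1 array omitted), and 0 between mutant normal skin and wild type (median 0.15). Against wild type, hair loss gave 1 called lower and 1 called higher. Fgf18, a growth factor that holds bulge cells at rest, read 0.05 and 0.78 in hair loss, 1.66 to 2.68 in normal skin of mutants, and 2.71 and 2.72 in wild type. It fell by 2.30 from wild type to hair loss (SE 0.40, limma adjusted p 0.0449). Tnc, the matrix protein tenascin-C of the bulge niche and of wounded skin, was above background on both hair loss arrays and on neither wild type array, at least 6.12-fold higher (limma adjusted p 0.0436). It passed the filter only through mutant arrays, where it was high, and its wild type values lay below background. Its p-value is thus not independent of that filter. The calls of Fgf18 and Tnc each held in 10 of 18 alternatives and were lost without either wild type array. With normexp background correction the log2 difference of Tnc was 0.86. That setting adds an offset of 50 to each intensity, which shrinks differences between dim values. The value of 0.86 is therefore not on the scale of the 6.12-fold bound.

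Genes of the upper follicle were counted next. Of 8 genes of the junctional zone and neighbouring progenitors, 7 were higher in hair loss than in mutant normal skin and 0 were called, with a median of 0.31. Krt79 and Krt17, keratins of the upper follicle and of the outer root sheath, were the brightest and differed by 0.55 (SE 0.26, limma adjusted p 0.972) and 0.71 (SE 0.28, limma adjusted p 0.935). Of 8 genes of the hair germ and outer root sheath, 6 were higher in hair loss than in mutant normal skin and 0 were called. Their median was 0.28 (-0.09 to 0.79 with 1 array omitted). All 8 were higher in mutant normal skin than in wild type (median 1.05) and 1 was called. That gene was Krt75, a companion layer keratin, which rose by 2.69 (SE 0.42, limma adjusted p 0.0435); the call was lost in 8 of 19 alternatives, among them normexp background correction (a difference of 1.62) and the omission of either wild type array.

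**Figure D4:**
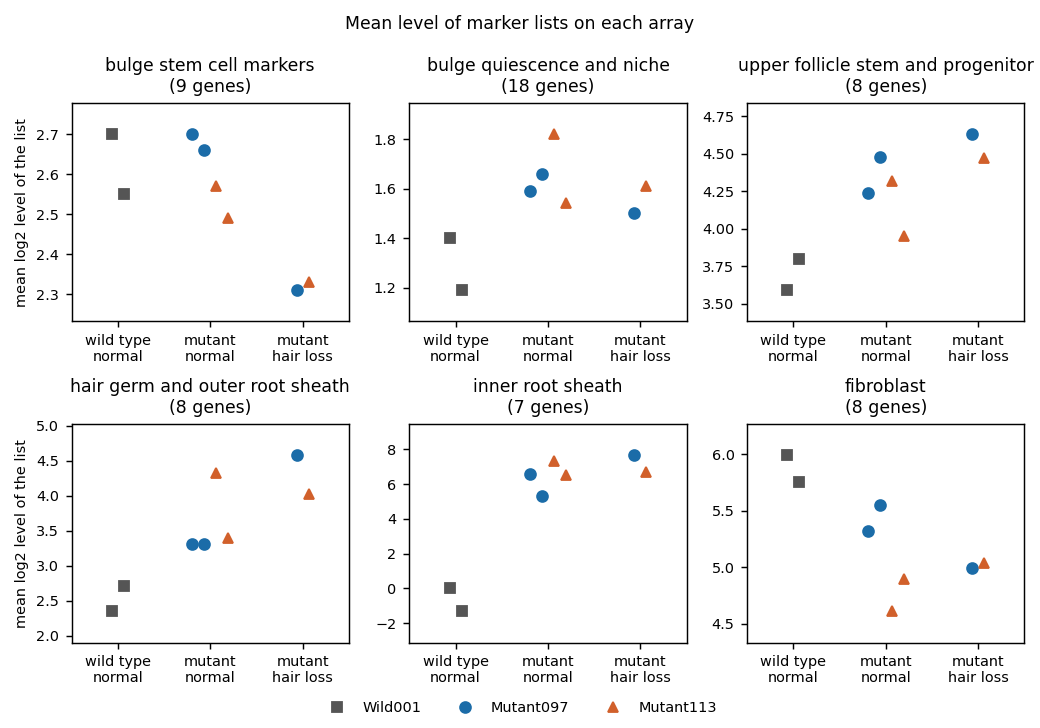
Mean log2 level of 6 gene lists on every array, by group, with colours and shapes for the title number; each point is the mean over the tested genes of the list, 1 probe per gene. The 9 bulge markers lie at 2.31 and 2.33 in hair loss, below the 2.49 to 2.70 of mutant normal skin, while the inner root sheath list separates wild type (-1.32 and 0.02) from all mutant arrays.

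Lists for growing hair were counted in the same way. Inner root sheath genes, made in growing follicles, averaged -1.32 and 0.02 in wild type, 5.34 to 7.31 in mutant normal skin and 6.71 and 7.66 in hair loss, and 6 of 7 were called higher in mutant normal skin than in wild type. Of 8 hair matrix and shaft genes 4 were called higher there, including the shaft keratin Krt31 at 6.06 (SE 0.84, limma adjusted p 0.0273), a call lost in 4 of 19 alternatives. In hair loss against wild type 5 of 8 matrix and shaft genes and 6 of 7 inner root sheath genes were called higher. Both counts of matrix and shaft genes include Krt33a, which was above background on mutant arrays only and passed the filter through them. Omitting wild type replicate 2 left 0 called in both lists and both comparisons with wild type. Omitting wild type replicate 1 left 1 matrix and shaft gene and 2 inner root sheath genes in each. In hair loss against wild type, omitting hair loss replicate 1 left 1 and 0. Omitting mutant normal skin replicate 4 left 2 matrix and shaft genes in normal skin and 3 in hair loss. In hair loss against mutant normal skin 0 genes of either list were called. There 7 of 8 matrix and shaft genes were higher, with a median of 0.72 (0.03 to 1.24 with 1 array omitted). Of the inner root sheath genes 6 of 7 were higher, with a median of 0.81 (0.18 to 1.35). The part of these growth-phase transcripts in the values of the 9 markers was not tested.

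Cell types that share markers with the bulge were measured too. Fibroblast genes, relevant to Cd34 and Postn, averaged 5.75 and 5.99 in wild type, 4.61 to 5.55 in mutant normal skin and 4.99 and 5.04 in hair loss. Of 8 tested, 7 were lower in mutant normal skin than in wild type (median -0.83) and 1 was called, Dpt, which encodes dermatopontin, by -1.63 (SE 0.25, limma adjusted p 0.0403), a call lost in 9 of 19 alternatives. In hair loss against mutant normal skin the fibroblast median was -0.09 (-0.21 to -0.01 with 1 array omitted) and 0 of 8 were called. Endothelial genes, relevant to Cd34, had medians of -0.33 in mutant against wild type normal skin and -0.15 in the lesion against mutant normal skin, with 0 of 8 called in each. The latter was 0.18 without the hair loss array of Mutant097.

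Mast cell genes averaged 1.26 and 2.87 in hair loss and 0.73 to 1.83 in mutant normal skin, so the groups overlapped. Their median difference was 0.61, with 0 of 6 called, and it was -0.13 without the hair loss array of Mutant113 and 1.44 without that of Mutant097. Against wild type 1 of 6 was called higher in hair loss, Kit, a receptor also present on melanocytes, by 1.89 (SE 0.28, limma adjusted p 0.0287). That call was lost without either wild type array or either hair loss array. Skeletal muscle genes averaged 4.42 and 3.09 in hair loss and 4.12 to 5.88 in mutant normal skin, with overlap. All 6 had a negative difference, with a median of -1.49 and 0 called, and the median was -0.79 without the hair loss array of Mutant113. Actin of skeletal muscle, Acta1, differed by -1.82 (SE 0.43, limma adjusted p 0.71), and the myosin gene Myh4 by -0.82 (SE 0.58, limma adjusted p 0.999), which turned to 0.13 without hair loss replicate 2. The part of fibroblasts, endothelium, mast cells and muscle in the marker differences was not tested.

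The remaining lists were counted as well. In hair loss against mutant normal skin, 0 genes were called in the lists for dermal papilla (median -0.34), adipocyte (-0.07), T cell (-0.05), interfollicular epidermis (0.00) and proliferation (0.25). With 1 array omitted these medians ran from -0.41 to -0.12, -0.52 to 0.35, -0.35 to 0.26, -0.02 to 0.20 and -0.01 to 0.55, in that order, so that of dermal papilla alone kept its sign. In mutant normal skin against wild type the same lists had medians of 0.14, 0.42, 0.11, 0.24 and 1.90, again with 0 called. With 1 array omitted, those of T cell and epidermis reached -0.03 and -0.04.

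Lgr6 was left out of the search for like profiles because its probe was well above background on 4 of 8 arrays only. Genes with the profile nearest to each of the other members were found over the 8 arrays as the smallest root mean square difference between centred log2 levels, among 12265 genes well above background on every array. For Krt15 they were Pgm5 (0.077), Tjap1 (0.082) and Prkcz (0.097), where Krt15 itself had an SD of 0.43. For Cd34 (SD 0.61) they were Cep295nl (0.11), Galnt16 (0.12) and P4htm (0.13), and for Nfatc1 (SD 0.45) Ctso (0.11), Parp3 (0.12) and Fgf7 (0.12). Sox9 (SD 0.39) was nearest to Dock5 (0.11), Rnmt (0.13) and Spindoc (0.13), and Postn (SD 0.43) to Rdh10 (0.077), Dusp11 (0.11) and Scarb2 (0.12). Tcf7l1 (SD 0.25) was nearest to Oxr1 (0.052), Gpbar1 (0.063) and Dpp4 (0.075).

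Lhx2 and Lgr5 had no neighbour as close. The nearest to Lhx2 (SD 0.54) were Lama5 (0.26), Sfrp1 (0.27) and Oscp1 (0.27), of which Sfrp1, a secreted Wnt inhibitor, was on the list of bulge quiescence and niche genes. The nearest to Lgr5 (SD 0.39) were Dnajc10 (0.18), Nt5e (0.20) and Egfr (0.20). Among these members themselves, the closest profiles were those of Krt15 and Nfatc1 (0.23) and of Sox9 and Postn (0.23), and the farthest were those of Cd34 and Postn (0.95) and of Cd34 and Sox9 (0.92). With 8 arrays in 3 groups, such nearness describes these arrays only.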

How the data were processed

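Per the file headers, Agilent Feature Extraction 11.5.1.1 gave each spot an intensity after its own correction, the processed signal. The log2 values of the authors' deposited matrix differed from the log2 of this intensity by a constant per array, within 0.01. Flagged spots (118 to 210 per array) were left out, 0 were saturated, and spots of a probe were averaged. The 75th percentile of each array was subtracted. Of 55603 probes, 30417 were well above background on at least 2 of 8 arrays and were tested, 19195 with a RefSeq symbol (14774 genes). All 8 arrays entered 1 model of the 3 groups in limma 3.58.1 in R 4.3.3 (5 residual and 2.71 prior degrees of freedom), two-sided, with Benjamini-Hochberg adjustment over all probes for each comparison. The script was tested on simulated data, where 200 probes received a known shift for each comparison. With a log2 shift of 1, 0% of them were recovered in any comparison. With a shift of 2, recovery was 52.5% for hair loss against mutant normal skin. It was 62% between mutant and wild type normal skin, and 45% between hair loss and wild type. A member with a difference of 1 could therefore be missed, and a lack of calls does not show equal levels.

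All 9 members are reported, each by its probe with the highest mean. Of other lists, at most 3 called genes, or the 2 brightest where none was called, were named. Members and lists were chosen with earlier results of these data known. Background, scaling, filter, probe, block and omitted arrays were varied. The number of arrays limits the precision. The deposited files hold no mean spot signal, so normexp used the median signal. Its offset of 50 shrinks the differences of dim probes.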

Additional observations from a re-analysis of the deposited data

How the results depend on the processing

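The number of arrays sets the limits here, and no alternative called a member in hair loss against mutant normal skin. That comparison had 0 probes called, but 9 probes without hair loss replicate 2 and 11 without mutant normal skin replicate 3 (range 0 to 11). With the title number as replicate block that comparison again had 0 probes and 0 members called. The differences of Krt15, Cd34 and Lhx2 (-0.71, -0.63 and -0.80) cannot change with this block. Each mutant number has 1 hair loss and 2 normal skin arrays, so the design is balanced. Pairing rests on a shared number only. The Mutant097 minus Mutant113 differences in hair loss and in normal skin correlated at 0.13 over probes, which are not independent.

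Between mutant normal skin and wild type, 211 probes became 332 centred on the median, 128 with no filter, 856 with the slide row as a block, 124 as genes, 339 with an intensity trend and 0 with 1 mean per group and number. Omitting arrays gave 0 (without wild type replicate 2), 10 (without wild type replicate 1), 75 and 116 (without mutant normal skin replicates 4 and 3) and up to 191. Of those called, 82.9% were higher, and 48.4% with the row block. A member was called under normexp only, where the count was 1 (Lhx2, 1.09, limma adjusted p 0.0403).

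Between hair loss and wild type, 432 probes became 795 centred on the median, 183 with no filter, 672 with a filter of 4 arrays, 1332 with the row block, 1175 with an intensity trend and 0 with 1 mean per group and number. Omitting arrays gave 0 (without wild type replicate 2) to 708, with 10 without wild type replicate 1 and 2 without hair loss replicate 1. The share higher, 69.9%, was 84.2% centred on the median, 87.4% with no filter and 52.6% with the row block. Members called numbered 1, Cd34, under normexp, quantile normalization, the filter of 4 arrays, the row block, gene means, the intensity trend and without mutant normal skin replicate 3 (range 0 to 1 over omissions).

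The difference between lesion effects had 0 probes called, but 287 under normexp, 3 under quantile normalization, 254 centred on the median, 20 as genes and 186 with an intensity trend (0 to 25 when arrays were omitted), with 0 members called in each. It could not be fitted with the row block or without a hair loss array.

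Among the members, directions turned for Lgr5, Lgr6 and Lhx2. Quantile normalization gave Lgr6 0.06 and 0.01 against wild type in normal skin and hair loss. Median centring gave Lgr6 0.07 and Lgr5 0.04 in normal skin and Lhx2 0.01 for the lesion effects. The row block gave Lhx2 -0.14 between hair loss and wild type. When arrays were omitted, Lgr6 ran from -0.39 to 0.10 in the lesion, from -0.64 to 0.46 and from -0.78 to 0.32 against wild type, and from -0.69 to 0.18 for the lesion effects. Lgr5 ran from -0.31 to 0.10 in normal skin, Lhx2 from -0.01 to 0.43 between hair loss and wild type and from -0.21 to 0.01 for the lesion effects, and the muscle gene Myh4 from -1.77 to 0.13 in the lesion. The cause was not tested. Median centring moved the median of all probes from -0.04 to 0.12 between mutant and wild type normal skin and from -0.06 to 0.16 between hair loss and wild type.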

Other observations

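The normal skin titles also carry a letter, A or B, which the labels do not explain, with 1 array of each letter for every title number. A minus B was 0.34, 0.42 and 0.10 for Krt15 in Mutant097, Mutant113 and Wild001, and -0.22, -0.21 and -0.38 for Lhx2. Krt15 was thus higher and Lhx2 lower under letter A in 3 of 3 numbers. Tcf7l1 was also lower under A in each number, at -0.04, -0.13 and -0.29. So was Lgr6, at -0.87, -0.08 and -1.1, with signal near background. Lgr5 and Sox9 changed direction between numbers. The share of all probes that kept 1 direction in every number was not counted. Cd34 differed by 0.29, 0.62 and -0.07, and Nfatc1 by 0.42, 0.43 and -0.35, higher under A in both mutant numbers and lower in wild type. Postn ran the opposite way, at -0.39, -0.50 and 0.23. These differences were not tested. In Mutant113 the lesion differences were -0.31 for Krt15, -0.43 for Cd34, -0.18 for Nfatc1, 0.41 for Postn and -0.85 for Lhx2. Of these, only that of Lhx2 was larger in size than the A minus B difference of Mutant113.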
